A study of Homo sapiens with 10 samples.

Results

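CMTM6, its paralogs and the ligands of PD-1 were followed through 3 human lung cancer cell lines in which mutant p53 was depleted with siRNA. The genes were chosen by family: every row of the count table that maps to a CMTM gene, to CD274 (PD-L1), to PDCD1LG2 (PD-L2) or to CD276 (B7-H3), which gave 11 of 57736 genes. Of these, 9 passed the filter on low counts and were tested, and CMTM2 and CMTM5 did not. CMTM6 was chosen because its transcript was lower after p53 siRNA, so its own changes with siRNA are given as a description without a test. The other members, CD274 among them, were also chosen with earlier results of these data known. Their tests are therefore not blind to the data.

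The cells were NCI-H2087 (p53 V157F), NCI-H441 (p53 R158L) and NCI-H2110 (p53 R158P), all established lines. Every culture was transfected, with control siRNA in one arm and p53 siRNA in the other. There were 2 libraries in each arm of NCI-H2087 and of NCI-H441, and a single one in each arm of NCI-H2110, which carries the replicate number 2. Titles call the depleted samples knockouts, but the protocol speaks of siRNA, and they are treated here as knockdowns. Each mutation is carried by 1 line, so the effects of line and mutation cannot be told apart. Nothing in the labels says that the replicates came from separate cultures, so each p-value reflects the spread among these libraries alone, which may be technical.

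CMTM6 is a membrane protein with a MARVEL domain that binds PD-L1 and protects it from lysosomal degradation at the cell surface and in recycling endosomes. CMTM4 can do the same when CMTM6 is missing. PD-L1 and PD-L2 on tumour cells engage PD-1 on T cells and dampen their response, and interferon gamma is the best known inducer of the PD-L1 gene. Only RNA was measured here.

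CMTM6, CMTM7 and CMTM8 lie next to one another on chromosome 3, CMTM1 to CMTM4 on chromosome 16, and CD274 and PDCD1LG2 on chromosome 9, while CMTM5 is on chromosome 14 and CD276 on chromosome 15. CMTM6 spans chr3:32481312-32503408 on the minus strand and CD274 spans chr9:5450503-5470566 on the plus strand (GENCODE, GRCh38). The exons of CMTM6 and CMTM7 run into each other from opposite strands and share 324 bases, 7.3% of the exon bases of CMTM6 and 8.6% of those of CMTM7. CMTM1 shares 591 exon bases, 40.3% of its own, with the readthrough gene CKLF-CMTM1 on the same strand. Whether the counting used the strand is not given in the sources used here, so reads in those shared bases cannot be assigned to one gene with certainty.

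Sequences just upstream of the RefSeq starts of CD274 and CMTM6 are shown because in NCI-H2087 these members had the largest log2 changes with p53 siRNA. Both come from RefSeq (GRCh38.p14) and are written 5′ to 3′ on the gene's strand. The GENCODE span of CMTM6 begins further upstream than its RefSeq start, so the CMTM6 stretch lies inside that span. In CD274, capitals mark, in order, a pair of overlapping matches to the core of the interferon-stimulated response element, a gamma-activated site and a GC box (chr9:5450292-5450502, plus strand). In CMTM6, capitals mark 4 GC boxes (chr3:32502881-32502908, minus strand).
CD274: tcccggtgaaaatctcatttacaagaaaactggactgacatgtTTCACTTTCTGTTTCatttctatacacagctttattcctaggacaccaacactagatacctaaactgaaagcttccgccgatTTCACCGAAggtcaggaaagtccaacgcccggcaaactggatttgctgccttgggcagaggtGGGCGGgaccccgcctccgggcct
CMTM6: GGGCGGGGCGGgccaaGGGCGGGGGCGG
The letters searched on both strands were GAAANNGAA for the interferon-stimulated core, TTCNNNGAA for the gamma-activated site and GGGCGG for the GC box, in the 250 bases before each RefSeq start. Among 35116 such windows, 6.9% held the interferon-stimulated core, 6.6% the gamma-activated site and 42.6% the GC box. The CMTM6 window held 5 GC boxes and neither interferon motif. Other members had as many GC boxes or more, with 5 in CMTM7, 6 in CMTM8 and 7 in a window of CD276. The p53 half-site consensus, present in 5.6% of all windows, had no match in the windows of the 10 members that the RefSeq table lists, which says only that these letters are not there.

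Library totals ran from 18336672 to 25810934 counts. Epithelial markers were abundant, with 3055 to 9428 CPM (counts scaled to the TMM library size) in sum over 7 genes. All 8 lymphocyte markers stayed under 1 CPM in every library, and CD2 was at 0. The 8 myeloid markers summed to between 1.92 and 10.1 CPM, with CD163 and TYROBP at 0. LYZ held 1.11 to 2.52 CPM across the libraries, and CD14 6.81 and 7.45 CPM in NCI-H2110. The 7 fibroblast and endothelial markers summed to between 12.7 and 49.4 CPM, most of it COL1A1 at 12.1 to 48.7 CPM. In RNA from whole cultures, fewer cells of a type and less RNA per cell cannot be told apart.

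CMTM6 was lower in each p53 siRNA library than in every control library of its line. In NCI-H2087 it stood at 73.2 and 69.6 CPM with control siRNA and at 23.5 and 17.1 CPM with p53 siRNA. NCI-H441 had 82.5 and 113 CPM in the controls and 40.5 and 34.8 CPM after p53 siRNA. NCI-H2110 had 51.1 CPM and 25.1 CPM. The groups did not overlap in either replicated line, and the p53 siRNA libraries of NCI-H2087 held the lowest levels of all 10. Arms hold only 2 libraries each there, and the share of all genes without overlap was not counted. Between 405 and 3066 counts stood behind each of these values.

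As fitted log2 changes, NCI-H2087 gave -1.81 ± 0.22 (SE, n = 2 libraries in each arm) for CMTM6, NCI-H441 gave -1.38 ± 0.22, and the additive model over the 3 lines gave -1.48 ± 0.16. The p53 siRNA mean was 28.4% of the control mean in NCI-H2087 and 38.4% in NCI-H441. Taken by replicate number, the remaining share was 32.1% and 24.6% in NCI-H2087 and 49.1% and 30.7% in NCI-H441. The single pair of NCI-H2110 libraries gave 49.2%, a ratio of 0.492 with a 95% exact binomial interval of 0.445 to 0.543. This interval, like those below, covers counting error only. The difference between the changes of NCI-H2087 and NCI-H441 was -0.44 ± 0.30 log2.

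**Figure D1:**
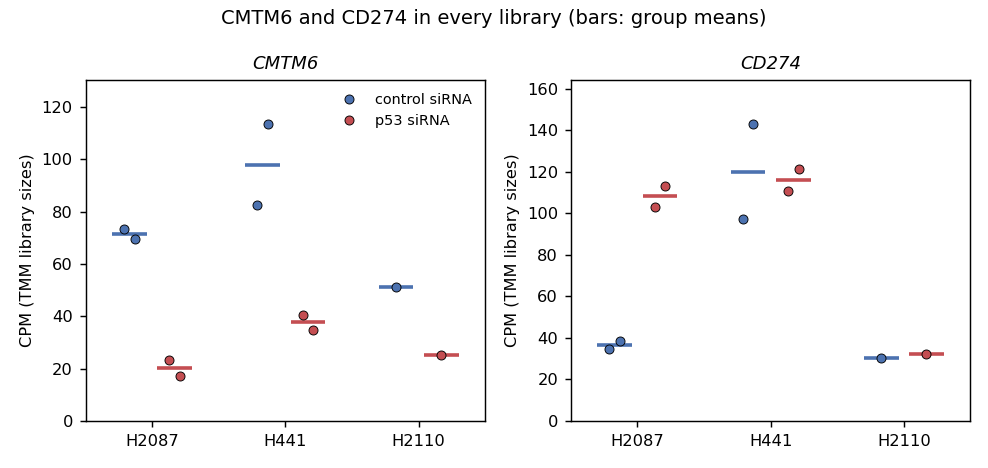
CMTM6 and CD274 in each of the 10 libraries, in CPM on TMM library sizes, by cell line; points are libraries, blue for control and red for p53 siRNA, and bars are group means. CMTM6 was lower after p53 siRNA in each line, while CD274 was higher in NCI-H2087 (34.5 and 38.3 against 103 and 113 CPM) and overlapped between arms in NCI-H441.

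CD274, which encodes PD-L1, moved the other way from CMTM6 in NCI-H2087. Its control libraries held 34.5 and 38.3 CPM and its p53 siRNA libraries 103 and 113 CPM. The groups lay far apart, and CD274 rose 2.97-fold, by 1.57 ± 0.20 log2 (edgeR, adjusted p = 0.00263). By replicate number the ratios were 2.99 and 2.95. CD274 was 1 of the 8 tested members other than CMTM6 called in this line, where 8.68% of the 17978 genes tested were called. The call held when each of 8 libraries was left out in turn, with changes from 1.50 to 1.66 log2 and an adjusted p of up to 0.0454. Summed epithelial markers were 4440 and 4121 CPM with control siRNA and 9428 and 9371 CPM with p53 siRNA in this line. KRT18 alone held 3348 and 3077 against 7325 and 7238 CPM. By edgeR, 5 of the 7 markers were called higher and 0 lower. With the replicate number as a block, 6 were higher and 1 lower, where 25.4% of all genes were called. The sum also differed in NCI-H441, at 5195 and 5051 against 6770 and 8217 CPM, and was 3133 and 3055 CPM in NCI-H2110. The part of these markers in the CD274 result was not tested.

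CD274 did not separate by siRNA in the other lines. In NCI-H441 it was already high, with 97.2 and 143 CPM in the controls and 111 and 121 CPM after p53 siRNA, so that both p53 siRNA libraries fell between the controls. Its fitted change was -0.05 ± 0.20 log2 (edgeR, adjusted p = 1.00). In NCI-H2110 it held 30.3 CPM and 32.5 CPM, a ratio of 1.07 (95% interval 0.968 to 1.19). The change common to the 3 lines was 0.62 ± 0.26 log2 (adjusted p = 0.310).

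The difference between the CD274 changes of NCI-H2087 and NCI-H441 was 1.62 ± 0.28 log2, with an edgeR adjusted p of 0.05001, on the threshold and not called. None of the 8 tested members other than CMTM6 was called in this difference by edgeR, where 0.412% of all genes were, and 2 of the 8, CD274 and CMTM1, had an unadjusted p below 0.05. DESeq2 called 1 member, which was CD274, and limma-voom called 0. With the replicate number as a block, the difference for CD274 was 1.59 ± 0.20 log2 and passed (adjusted p = 0.000269), in a fit that called 8.92% of all genes. That fit left 2 residual degrees of freedom. Leaving out 1 library at a time gave 1.32 to 1.90 log2 and adjusted p-values from 0.0610 to 0.233.

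PDCD1LG2, the second PD-1 ligand, was scarce. In NCI-H2087 it went from 1.75 and 1.55 CPM to 3.80 and 3.63 CPM. Its change was 1.17 ± 0.48 log2 (edgeR, adjusted p = 0.163), which did not pass. With the replicate block, the same change of 1.17 ± 0.28 log2 passed (adjusted p = 0.00699), in a fit that called 25.4% of all genes in this line. In NCI-H441 it held 1.76 and 4.14 CPM in the controls and 2.79 and 5.73 CPM after p53 siRNA, with overlap (0.52 ± 0.46 log2, edgeR adjusted p = 0.933), and by replicate number the ratios were 1.58 and 1.38. In NCI-H2110 it was counted 5 times and 2 times, and its ratio of 0.440 had a 95% interval of 0.0419 to 2.69.

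CD276, a B7 family member outside the PD-1 axis, was expressed in each line at 27.2 to 51.0 CPM. It held 32.2 and 29.8 CPM with control siRNA and 36.5 and 27.2 CPM with p53 siRNA in NCI-H2087, where the arms overlapped. In NCI-H441 it held 44.2 and 39.5 against 48.6 and 46.8 CPM. The fitted changes were 0.04 ± 0.19 and 0.19 ± 0.19 log2 (edgeR, adjusted p = 0.935 and 0.939). In NCI-H2110 the ratio was 0.803 (95% interval 0.738 to 0.874), from 51.0 to 40.9 CPM.

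CMTM4, the paralog that can stand in for CMTM6, did not pass the test with p53 siRNA in any comparison. It held 19.1 and 18.7 CPM in the controls and 22.1 and 21.6 CPM after p53 siRNA in NCI-H2087, and 89.0 and 85.1 against 103 and 88.2 CPM in NCI-H441. The changes were 0.21 ± 0.16 and 0.13 ± 0.15 log2 (edgeR, adjusted p = 0.456 and 0.955). In NCI-H2110 it stood at 92.5 and 84.5 CPM, a ratio of 0.913 (95% interval 0.860 to 0.970). NCI-H2087 had the least CMTM4 in both arms, and it differed from the other lines far more than the arms differed. The NCI-H2110 control held 1.06 times the control mean of NCI-H441, so those lines were close.

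CMTM8, a further neighbour of CMTM6 on chromosome 3, was lower in each p53 siRNA library than in the control of the same replicate number, without a call. It held 26.0 and 27.4 CPM against 19.1 and 21.3 CPM in NCI-H2087. In NCI-H441 it held 35.3 and 28.4 against 29.0 and 25.1 CPM, where the arms overlapped but the ratios by replicate number were 0.821 and 0.884. The changes were -0.41 ± 0.19 and -0.24 ± 0.19 log2, and -0.36 ± 0.12 log2 in common (edgeR, adjusted p = 0.215, 0.933 and 0.224). The ratio in NCI-H2110 was 0.694 (95% interval 0.615 to 0.783). How many of all genes keep one direction in every such pair was not counted.

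CMTM7, whose 3′ end overlaps that of CMTM6 from the other strand, was not called with p53 siRNA. It held 18.3 and 21.6 CPM against 25.1 and 26.8 CPM in NCI-H2087, a change of 0.38 ± 0.20 log2 (edgeR, adjusted p = 0.268). NCI-H441 had 41.6 and 50.3 against 43.7 and 55.7 CPM (0.11 ± 0.20 log2, adjusted p = 0.974). In NCI-H2110 it was lower after p53 siRNA, at 15.6 against 9.79 CPM, a ratio of 0.627 (95% interval 0.530 to 0.740). Its values thus lay above the controls in NCI-H2087, overlapped in NCI-H441 and lay below in NCI-H2110.

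CMTM3 was scarce in one line. It held 27.5 and 38.0 CPM in the controls and 35.4 and 31.3 CPM after p53 siRNA in NCI-H2087, and 43.3 and 43.9 against 35.6 and 37.7 CPM in NCI-H441. NCI-H2110 had 1.46 and 1.00 CPM, from 37 and 23 counts. The control level was 22.5 times higher in NCI-H2087 and 29.9 times higher in NCI-H441 than in NCI-H2110, which has 1 control library and allows no test. The changes with siRNA were 0.02 ± 0.20 and -0.25 ± 0.20 log2 (edgeR, adjusted p = 0.976 and 0.933).

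CMTM1 was scarce, and its arms stood apart in opposite directions in the replicated lines. The share of all genes that do so was not counted. It held 2.84 and 2.98 CPM against 2.05 and 1.52 CPM in NCI-H2087 and 2.79 and 2.85 against 3.24 and 4.21 CPM in NCI-H441. The p53 siRNA libraries lay below both controls in NCI-H2087 and above both in NCI-H441. The changes were -0.70 ± 0.32 and 0.40 ± 0.30 log2 and their difference -1.10 ± 0.44 log2 (edgeR, adjusted p = 0.201, 0.933 and 0.327), none of which passed. Counts were low, at 36 to 103 per library. CMTM2 had 0 or 1 count in each library of NCI-H2087 and NCI-H441 and 4 and 7 counts in NCI-H2110. CMTM5 had 0 counts throughout, which allows up to 0.155 CPM, the level of 3 counts in the smallest library.

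**Figure D2:**
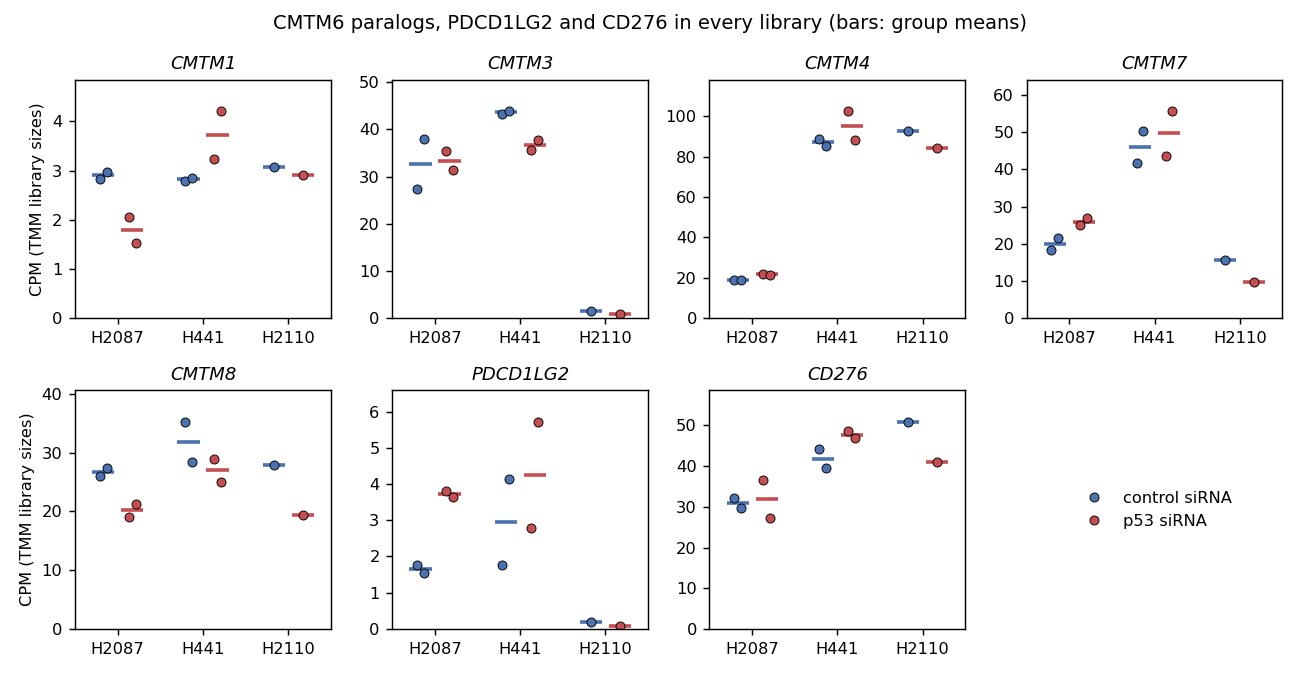
The other tested members in each of the 10 libraries, in CPM on TMM library sizes; points are libraries, blue for control and red for p53 siRNA, and bars are group means. CMTM3 was at 1.46 CPM or below in NCI-H2110, CMTM4 was lowest in NCI-H2087, and the arms of CMTM1 separated in opposite directions in NCI-H2087 and NCI-H441.

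Over the members other than CMTM6, p53 siRNA gave 0 calls of 8 in NCI-H441 by edgeR, where 0.00556% of all genes were called, and 0 members had an unadjusted p below 0.05. DESeq2 and limma-voom also called 0 of the 8 there. In the change common to the 3 lines, edgeR called 0 of the 8 against 0.395% of all genes, with 2 at an unadjusted p below 0.05 and 0 called by DESeq2 or limma-voom. The median log2 change of the 8 was 0.13 in NCI-H2087 and 0.12 in NCI-H441, beside medians of -0.03 and 0.01 over all genes tested. In NCI-H2110, 0 of the 6 other members with at least 50 counts differed by 2-fold or more, beside 1.49% of genes at that depth. Scaling by library totals in place of TMM moved the median of all genes in NCI-H2087 from -0.03 to -0.21 log2 and turned the sign of the small changes of CMTM3 and CD276 there, to -0.15 and -0.14.

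**Figure D3:**
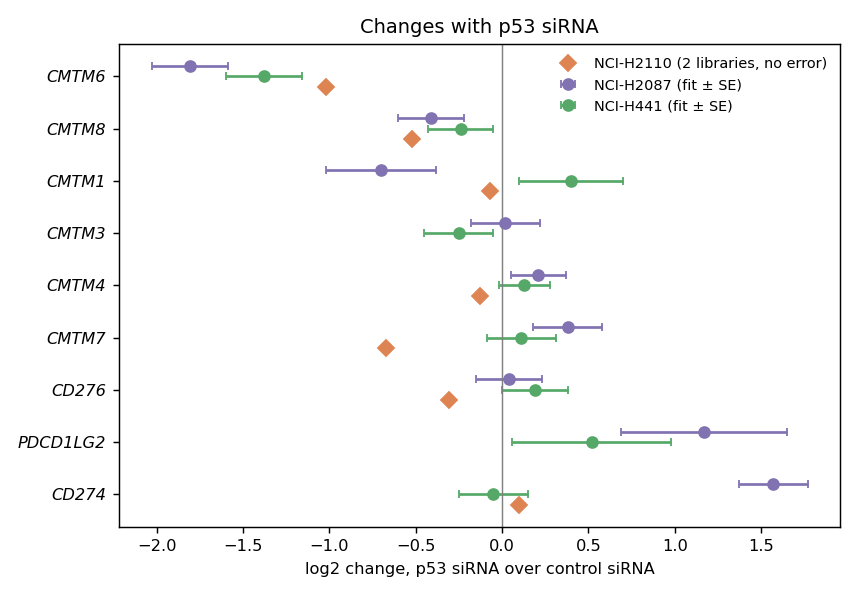
Log2 change with p53 siRNA of each tested member; circles are fitted changes with bars of ± SE in NCI-H2087 and NCI-H441, and diamonds are log2 ratios of 1 library per arm in NCI-H2110, drawn where a library had at least 50 counts. CMTM6 lies at -1.81, -1.38 and -1.02, and CD274 at 1.57 in NCI-H2087 but near 0 in the other lines.

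Before any p53 siRNA, the replicated lines differed in 3 of the 9 tested members, where 42.1% of all genes differed. In the control libraries CD274 was 3.30-fold higher in NCI-H441 than in NCI-H2087 (1.72 ± 0.20 log2, edgeR adjusted p = 0.000145). CMTM4 was 4.61-fold higher in NCI-H441 (2.20 ± 0.16 log2, adjusted p = 8.84e-06) and CMTM7 2.31-fold higher (1.21 ± 0.20 log2, adjusted p = 0.00111). All 3 calls held without each library in turn. CMTM6 itself was 0.46 ± 0.21 log2 higher in NCI-H441, which did not pass (adjusted p = 0.113). The remaining members differed by -0.05 to 0.85 log2, with adjusted p-values from 0.0916 to 0.930. The upper end was PDCD1LG2, which gave 0.08 log2 without NCI-H441 control replicate 2 and 1.35 log2 without control replicate 1. The control library of NCI-H2110 held 4.90 times the CMTM4 of NCI-H2087 and 0.252 times the CD274 of NCI-H441.

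Divided by exon length, the order of the members' levels differed by line. In the NCI-H2087 controls the mean level was highest for CMTM8 at 22.8 CPM per kb, then CMTM6 at 16.2, CMTM3 at 10.4 and CD274 at 8.86 CPM per kb. CMTM3 was above CD274 in both control libraries, whereas CD276 at 5.59 and CMTM7 at 5.31 CPM per kb changed places between them. In the NCI-H441 controls CD274 came first at 29.2 CPM per kb, followed by CMTM8 at 27.1 and CMTM6 at 22.2 CPM per kb. CD274 was above CMTM6 in both control libraries there, whereas CMTM8 was above both genes in replicate 1 and below both in replicate 2. In NCI-H2110, CMTM8 led at 23.8 CPM per kb, and CMTM6 and CMTM4 followed at 11.6 and 11.4 CPM per kb, indistinguishable with 1 library. PDCD1LG2 was at most 1.25 CPM per kb in each control group. With the longest transcript as the length CMTM7 ranked higher, at 9.64 CPM per kb in the NCI-H2087 controls and 22.2 CPM per kb in those of NCI-H441, and in NCI-H2110 CD276 went from 9.20 to 14.7 CPM per kb and passed CMTM6 and CMTM4, at 13.2 CPM per kb each.

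CMTM6 made up a smaller part of the CMTM transcripts after p53 siRNA. Its share of the summed CPM per kb of all CMTM genes was 29.3% and 25.8% in the NCI-H2087 controls and 12.2% and 9.07% after p53 siRNA. NCI-H441 went from 21.6% and 28.7% to 12.8% and 11.3%, and NCI-H2110 from 21.6% to 15.1%. CMTM8 held between 27.0% and 44.3% in every library, or 21.7% to 38.7% with the longest transcript as the length. CMTM4 held 4.15% and 3.76% in the NCI-H2087 controls and 6.24% and 6.23% after p53 siRNA, and 21.3% and 27.6% in the 2 libraries of NCI-H2110. These shares are computed from the CMTM6 values above and are not separate evidence.

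The ratio of CD274 to CMTM6, each per kb, was higher after p53 siRNA in each line. It was 0.506 and 0.591 in the NCI-H2087 controls and 4.72 and 7.10 after p53 siRNA. In NCI-H441 it was 1.27 and 1.35 in the controls and 2.93 and 3.75 after p53 siRNA, and in NCI-H2110 it was 0.636 and 1.39. In NCI-H441 and NCI-H2110 the rise of this ratio came with little or no difference in CD274, whereas in NCI-H2087 both genes moved. With the longest transcript as the length, the NCI-H2087 values were 0.500 and 0.583 against 4.65 and 7.01. These ratios are computed from the CMTM6 and CD274 values above and are not separate evidence.

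**Figure D4:**
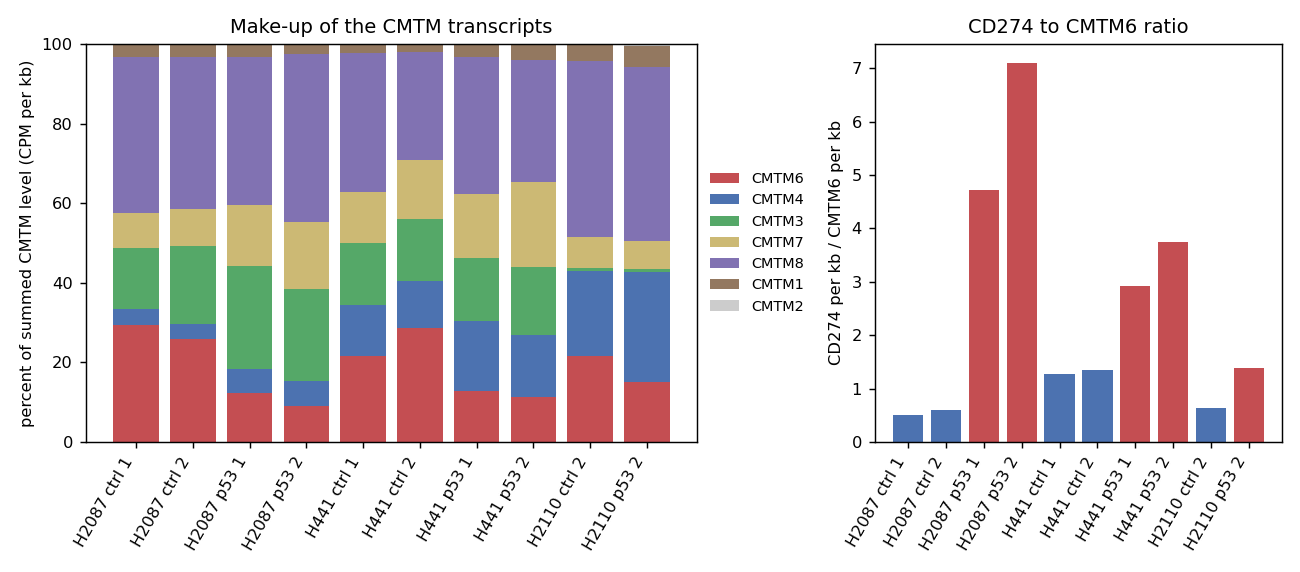
Left, the share of each CMTM gene in the summed CMTM level (CPM per kb of exon) in each library, where ctrl is control and p53 is p53 siRNA; right, the ratio of CD274 to CMTM6 per kb, blue for control and red for p53 siRNA. The CMTM6 share was lower in each p53 siRNA library than in the controls of its line, and the ratio was highest in the 2 p53 siRNA libraries of NCI-H2087, at 4.72 and 7.10.

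Genes known to act on CD274 transcription, namely the interferon gamma receptor, JAK and STAT proteins and further transcription factors, were described as a list of 18, all tested. In NCI-H2087, 2 rose and 2 fell, where 8.68% of all genes were called, and the list's median was 0.27 log2 beside -0.03 over all genes. HIF1A, a hypoxia-responsive factor, rose by 0.74 ± 0.15 log2 (edgeR, adjusted p = 0.0152), and JUN, a subunit of AP-1, rose by 1.22 ± 0.24 log2 (adjusted p = 0.0156), from a mean of 52.0 CPM to 120 and 122 CPM. IRF1, the interferon gamma responsive activator of CD274, fell by 0.98 ± 0.23 log2 (adjusted p = 0.0317), with 14.4 and 16.3 CPM in the controls against 8.55 and 6.97 CPM. STAT2, which acts in type I interferon signalling, fell by 0.80 ± 0.21 log2 (adjusted p = 0.0432). With the replicate block, 6 of the 18 rose and 2 fell, where 25.4% of all genes were called.

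Of 20 genes that act on the PD-L1 protein, by glycosylation, palmitoylation, ubiquitination or trafficking, 1 rose and 0 fell in NCI-H2087 (median -0.05 log2), a share below the 8.68% of all genes. It was B3GNT3, a glycosyltransferase, at 8.46 and 6.97 CPM against 15.1 and 17.5 CPM (1.08 ± 0.19 log2, edgeR adjusted p = 0.0104). With the block, 2 rose and 2 fell, beside 25.4% of all genes. Among 18 tested genes for other B7 proteins and ligands of inhibitory receptors, PVR, a ligand of TIGIT, rose by 1.09 ± 0.26 log2 (adjusted p = 0.0299) and none fell (median -0.22 log2), again below the share of all genes. Under the block 2 of these 18 rose and 4 fell.

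Proteins with a MARVEL domain outside the CMTM family were measured through 16 tested genes, of which 2 rose and 2 fell in NCI-H2087 (median 0.09 log2), beside 8.68% of all genes called. With the block 5 rose and 3 fell, beside 25.4% of all genes. PLP2 rose from 192 and 188 CPM to 513 and 411 CPM (1.28 ± 0.17 log2, edgeR adjusted p = 0.00285), and SYPL1 rose by 0.93 ± 0.20 log2 (adjusted p = 0.0205). MARVELD1 fell from 91.1 and 91.1 CPM to 37.1 and 43.4 CPM (-1.18 ± 0.19 log2, adjusted p = 0.00592). OCLN, a tight junction protein, fell by 0.87 ± 0.16 log2 (adjusted p = 0.0130).

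Neighbours of the members on the chromosome were listed as well, and their counts stand beside 8.68% of all genes called in NCI-H2087, or 25.4% with the replicate block. Around CMTM6, CMTM7 and CMTM8, 0 of 11 rose and 2 fell in NCI-H2087 (median 0.00 log2): OSBPL10, a lipid-binding protein gene, by 0.69 ± 0.16 log2 (edgeR, adjusted p = 0.0288), and ZNF860 by 1.24 ± 0.29 log2 (adjusted p = 0.0309). Around CD274 and PDCD1LG2, 2 of 8 rose and 0 fell (median -0.22 log2). PLGRKT, beside CD274, went from 15.0 and 13.2 CPM to 25.3 and 27.8 CPM (0.91 ± 0.17 log2, adjusted p = 0.0134), and ERMP1 from 14.7 and 18.4 CPM to 30.4 and 34.1 CPM (0.96 ± 0.20 log2, adjusted p = 0.0189). Around CD276, 1 of 5 rose, LOXL1 (1.76 ± 0.26 log2, adjusted p = 0.00428). Around CMTM3 and CMTM4, edgeR and DESeq2 called 0 of 6 and limma-voom 1, while 3 had an edgeR p below 0.05 before adjustment. The smallest p there was that of BEAN1, which gave 3.42 ± 1.06 log2 (edgeR adjusted p = 0.0916). With the replicate block, 0 rose and 3 fell around CMTM6, 3 rose and 1 fell around CD274, 1 rose and 2 fell around CD276, and 1 rose and 1 fell around CMTM3 and CMTM4.

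Between the lines at control siRNA, 35 of the 72 pathway genes and 12 of the 30 neighbours were called, near the 42.1% of all genes. Of the 8 tested neighbours of CD274, 4 were higher in NCI-H441 and 0 lower (median 0.66 log2 beside -0.02 over all genes). PLGRKT was 1.64 ± 0.17 log2 higher (edgeR, adjusted p = 7.39e-05), at 42.3 and 45.3 CPM against 15.0 and 13.2 CPM, and ERMP1 1.67 ± 0.20 log2 higher (adjusted p = 0.000159). RIC1 and KIAA2026 were 1.01 ± 0.19 and 0.56 ± 0.18 log2 higher (adjusted p = 0.00214 and 0.0304). Among the genes that act on CD274 transcription, 7 of 18 were higher in NCI-H441 and 2 lower, JAK1 by 1.30 ± 0.16 log2 (adjusted p = 0.000155) and STAT2 by -1.32 ± 0.21 log2 (adjusted p = 0.000876) among them. B3GNT3 was 2.39 ± 0.20 log2 higher (adjusted p = 1.59e-05).

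These list calls of NCI-H2087, with the cell type markers left aside, rest on few libraries. Leaving out its control replicate 2 took all 15 called list genes past the threshold, with adjusted p-values from 0.0546 to 0.288, and leaving out its control replicate 1 took 13, with p53 siRNA replicate 2 taking 10. Leaving out its p53 siRNA replicate 1, or either control of NCI-H441, took 4 each. Scaling by library totals took 1, PVR (adjusted p = 0.0526), and RLE, no filter, DESeq2, limma-voom and the block took 0. In NCI-H441, edgeR called 0 of the 72 genes of the 4 pathway lists and 0 of the 30 neighbours, with 3 and 1 at an unadjusted p below 0.05 and 0 by DESeq2 or limma-voom.

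Over the 10 libraries and 11108 genes of at least 5 CPM on average, the genes whose log2 CPM followed CMTM6 most closely were KIF3B (Pearson r = 0.953), TRIM13 (0.927), LUC7L2 (0.918), ZNF664 (0.916) and DYNC1LI2 (0.912). KIF3B stood at 80.0 and 86.9 CPM in the NCI-H2087 controls and at 54.7 and 57.6 CPM after p53 siRNA, a smaller span than that of CMTM6. Closest to CD274 were RPL6 (0.976), MAPKAPK3 (0.975), CDCP1 (0.969), TNFAIP3 (0.967) and MREG (0.966). MAPKAPK3 held 38.2 and 45.6 CPM in the NCI-H2087 controls, 109 and 123 CPM after p53 siRNA, 106 to 153 CPM in NCI-H441 and 25.4 and 25.5 CPM in NCI-H2110. Of the CMTM6 list, 3 were also among the 5 of highest Spearman rho, and of the CD274 list 1, MAPKAPK3, tied for the fifth place. Among the members, CMTM8 was most like CMTM6 (r = 0.799), CMTM7 most like CD274 (r = 0.871), and CMTM6 and CD274 were near 0 (r = -0.088). The points share cell lines and siRNA arms, so these values describe the libraries and carry no test.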

How the data were processed

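The deposited file holds whole-number counts per Ensembl gene ID with no normalization, per the file header and its values. The submitters' processing notes name Bowtie2, RSEM 1.2.12 and hg19, with no role or order; the annotation is not given in the sources used here, nor whether the counts are rounded estimates. Symbols came from a names table for 51959 IDs and from GENCODE for 342. GENCODE GRCh38 also gave lengths, positions and overlaps. Members, lists and tests were chosen with earlier results of these data known.

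From these counts, edgeR 4.0.16 in R 4.3.3 gave all tests (filterByExpr on 6 groups, 17978 genes with 99.96% of counts; TMM; quasi-likelihood tests, two-sided, Benjamini-Hochberg over all genes tested, calls at an adjusted p below 0.05). All 10 libraries entered a model of group means, with 4 residual degrees of freedom, and an additive one of line plus siRNA, with 6, for the common change. The common biological coefficient of variation was 19.8%. The script was tested on simulated data. NCI-H2110 was compared without a test, and the interval of each ratio is exact binomial (Clopper-Pearson). Named are all members, up to 4 called genes of smallest p per list (2 where none was called, of which few are printed), and the 5 genes of highest r; 1 further gene of this rule is not reported here.

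Replicates were not copies of one another (chi-square per gene 21.3 to 63.6). Over 9332 genes, replicate numbers deviated together in both arms, with r = 0.534 in NCI-H2087 and 0.595 in NCI-H441. The r of each line was thus above 0.1, and the numbers were taken as pairs in the replicate block alone. This pairing comes from the data and not from the labels. The main edgeR calls come from the models without pairs. Blocked values stand beside calls they change. The block left 2 residual degrees of freedom in the model of group means and 4 in the additive one. Alternatives were RLE, library totals, no filter, DESeq2 1.42.0, limma-voom (limma 3.58.1), the block and leaving out each library.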

Additional observations from a re-analysis of the deposited data

Results flagged for a closer look

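CMTM1 was flagged because its arms separated in opposite directions in the replicated lines. How many of all genes separate in this way was not counted. It held 2.84 and 2.98 CPM against 2.05 and 1.52 CPM in NCI-H2087, and 2.79 and 2.85 against 3.24 and 4.21 CPM in NCI-H441. The difference between the changes was -1.10 ± 0.44 log2 and did not pass (edgeR, adjusted p = 0.327). Counts were 36 to 103 per library, and 40.3% of the exon bases of CMTM1 are shared with CKLF-CMTM1, whose part in the difference was not tested.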

How the results depend on the processing

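Members called with p53 siRNA in NCI-H2087, CMTM6 left aside, numbered 2 with the replicate block and 2 with no filter, in place of 1. In common they numbered 1 with no filter in place of 0. In the difference between the lines they numbered 1 with the replicate block, with RLE, with no filter and with DESeq2, in place of 0. The count at control siRNA was 3 in each setting run; the block was not run there, because pairs are nested in lines. The replicate block changed the call of CD274 in the difference (adjusted p = 0.000269) and of PDCD1LG2 in NCI-H2087 (adjusted p = 0.00699), and of no other member, CMTM6 aside. The cause of these moves was not tested.

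Signs turned for small changes without a call. With library totals these were CD276 and CMTM3 in NCI-H2087 (-0.14 and -0.15 log2), CD276 and CMTM7 in common (-0.06 and -0.02) and CMTM4 in the difference (-0.05). With 1 library left out, ranges were -0.19 to 0.24 for CD276 and -0.18 to 0.29 for CMTM3 in NCI-H2087; -0.32 to 0.26 for CD274, -0.07 to 0.28 for CMTM7 and -0.09 to 1.28 for PDCD1LG2 in NCI-H441; -0.04 to 0.09 for CD276, -0.26 to 0.03 for CMTM1 and -0.01 to 0.12 for CMTM7 in common; -0.38 to 0.05 for CD276, -0.03 to 0.19 for CMTM4 and -0.10 to 1.26 for PDCD1LG2 in the difference; and -0.08 to 0.00 for CMTM1 at control siRNA. Where 1 library was left, it was assumed to vary like the other groups. Depth limits CMTM1, CMTM2, CMTM5 and PDCD1LG2. Left-out libraries were not run for list genes at control siRNA.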
